A study of Saccharomyces cerevisiae with 14 samples.

Results

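The genes described here are the 33 budding yeast genes for sulfate assimilation and for methionine and cysteine metabolism, with their transporters and regulators. They were chosen by name and found through the standard gene name or the systematic name of the open reading frame, and all 33 are among the 6094 open reading frames on the membranes. Cells of Saccharomyces cerevisiae were exposed to methyl methanesulfonate (MMS), which alkylates DNA, and 33P-labelled cDNA of their total RNA was bound to membranes that carry the yeast genes. FF18984 cells in minimal (F1) or rich (YPD) medium were mock-treated or given 0.00125% MMS (the low dose) or 0.0125% MMS (the high dose) for 30 min or 1 h, which makes 12 arrays. Strain BY4742 was grown in YPD and was mock-treated or given the high dose for 1 h, which makes 2 arrays. Each condition has 1 array, and arrays that share strain, medium and time were made one after the other on a single membrane that was stripped each time. There are thus 5 such membrane sets.

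Yeast takes up sulfate, activates it and reduces it to sulfide, which is joined to a carbon chain to give homocysteine. Homocysteine is methylated to methionine or turned into cysteine by transsulfuration, and methionine is the source of S-adenosylmethionine (SAM), the methyl donor of the cell. The pathway is known to be switched on by the activator Met4 with its partners Cbf1, Met28, Met31 and Met32, and to be shut down through the ubiquitin ligase subunit Met30 when methionine or SAM is plentiful. Rich medium contains methionine.

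Levels are normalized log2 intensities, on which a difference of 1 is a 2-fold change, and levels of different genes were not set against each other. The array with the weakest signal had a median of 41.8 and the one with the strongest 2019160 on the scale of the files, and each array was scaled to its own median. Between 2.58% and 33.4% of genes per array lay at or below the background, with the highest shares in the FF18984 high-dose arrays at 1 h (31.4% in F1 and 33.4% in YPD). The spots were compressed on the FF18984 YPD 30 min high-dose array, where the 99th percentile of the spot integral was 1.84 times the median, against at least 7.60 and up to 26.1 times on the others. Over the 33 genes, as over all genes, the BY4742 arrays of 1 h correlated better with the FF18984 YPD arrays of 30 min (median 0.796 over 6 pairs) than with those of 1 h (0.588). By this measure the BY4742 arrays were nearer to the arrays with the other time label. Time and membrane cannot be told apart in these correlations, and the times are given here as labelled. BY4742 is a strain of the alpha mating type with deleted HIS3, LEU2, LYS2 and URA3 genes. STE3, the a-factor receptor of alpha cells, was at 1.90 and 1.29 in its mock and high-dose arrays and STE2, the receptor of a cells, at -2.15 and -1.65, both as the label says. URA3 was at 1.11 and 1.47, against 5.85 to 7.75 in FF18984, and LEU2 at -1.22 and -1.44, against -0.87 to 1.52. HIS3, at 1.13 and 0.76, lay within its FF18984 range of -0.63 to 1.80 and did not separate the strains, and LYS2, at 4.25 and 3.72, goes against the label. LYS2 ran from 0.88 to 6.15 on the FF18984 arrays of 30 min and from -2.39 to 0.45 on those of 1 h. Its BY4742 values thus lay within the 30 min range and above the 1 h range.

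Of the 33 genes, 14 were above the background in all 12 FF18984 arrays. MET32, a DNA-binding partner of Met4, lay at background or under it in 10 of the 14 arrays, MET7, which makes polyglutamylated folates, in 9, MET8, which makes the sirohaem cofactor of sulfite reductase, in 8, and MET30 in 7. The count was 5 arrays for MET12, a methylenetetrahydrofolate reductase, 5 for the sulfate permease gene SUL1 and 4 for MMP1, an S-methylmethionine permease. The lowest value possible differs between arrays, as for MET32 at -2.35 and -1.93 in the F1 1 h low- and high-dose arrays. Differences between 2 arrays with the gene at background thus carry no information. Those with the gene at background on 1 array depend on that lowest value. The 2 spots of a gene differed by a median of 0.29 on the log2 scale among the 33 genes and by 0.29 over all positions. Among the 33, this median was largest for MMP1, at 1.40, and for MET12, at 1.15. SAM1 and SAM2 are close paralogs, and their signals may be shared.

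**Figure D1:**
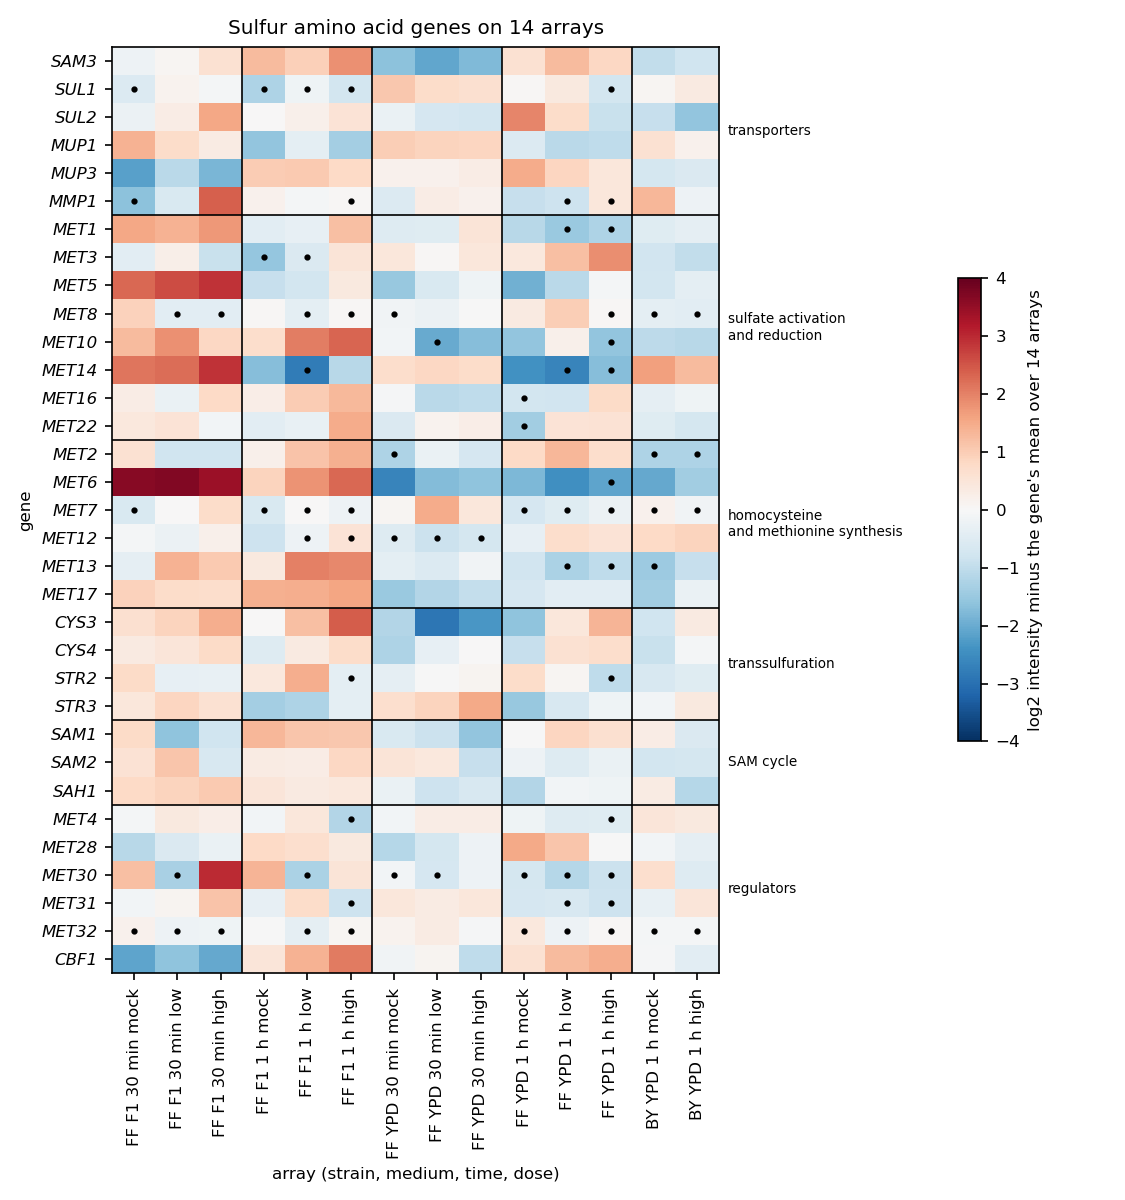
Heat map of the 33 genes (rows, by role) on the 14 arrays (columns; FF is FF18984 and BY is BY4742). Colour gives the log2 intensity minus the gene's mean over 14 arrays, and black dots mark values at or below the background. MET6 is high on the 6 F1 arrays and low on the 8 YPD arrays, and MET32 has dots on 10 arrays.

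YPD was compared with F1 in FF18984 to see which genes differ between rich and minimal medium. Of the 33 genes, 8 fell in YPD and 0 rose at a limma adjusted p under 0.05, where 1.95% of all genes fell and 3.30% rose (5.25% in either direction). The 8 genes act in sulfite reduction (MET1, MET5 and MET10), in methionine synthesis (MET6, MET13 and MET17), in cysteine synthesis (CYS3) and in the SAM cycle (SAH1). All 8 were lower in YPD in 6 of 6 pairs of arrays with the same time and dose. The 8 were picked by the fit to these same arrays, so the count of pairs is no further evidence. Pairs of the same time also share their membranes. None of the 6 transporter genes and none of the 6 regulator genes passed. The median difference over the 33 genes was -0.35, against -0.02 over all genes, and 23 of the 33 were lower in YPD. The other 10 were higher, where 48.8% of all genes were.

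MET6 encodes the methionine synthase that methylates homocysteine, and it had the largest difference of the 33. In F1 its level was 4.55 in the mock, 4.60 in the low-dose and 4.32 in the high-dose array at 30 min, and 1.81, 2.71 and 3.22 in the same order at 1 h. In YPD it was -1.72, -0.81 and -0.69 at 30 min and -0.89, -1.54 and -1.20 at 1 h, the last of these at or below the background. The lowest F1 array was above the highest YPD array, so the media did not overlap. MET6 fell by 4.67 ± 0.39 (SE, 12 arrays) on the log2 scale in YPD, or 25.5-fold, with a limma adjusted p of 1.41e-05. Without background correction the MET6 difference was smaller, at -2.92 ± 0.30 (adjusted p = 0.000495). Among the 8 genes it is the one that also passed on the 4 mock arrays alone, where it fell by 4.48 ± 0.74. BY4742, also grown in YPD, had MET6 at -1.14 in mock and -0.47 at the high dose, both below every F1 array.

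MET17, listed under its other name MET25 in the files, encodes the O-acetylhomoserine sulfhydrylase that brings sulfide into homocysteine. Its lowest, median and highest levels were 3.98, 4.45 and 4.85 on the 6 F1 arrays and 1.79, 2.47 and 2.87 on the 6 YPD arrays, with no overlap. It fell by 1.99 ± 0.25 in YPD, or 3.96-fold (adjusted p = 0.000782). Fitted separately, the MET17 difference was -1.995 on the 30 min arrays and -1.978 on the 1 h arrays. In BY4742 it was at 1.89 and 3.02, again below all F1 arrays.

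MET13, the main methylenetetrahydrofolate reductase, makes the methyl donor that Met6 uses. Its levels ran from -1.29 to 1.10 in F1, with a median of 0.29, and from -2.20 to -1.07 in YPD, with a median of -1.59. The ranges overlapped through the F1 30 min mock array at -1.29, and 2 of the 6 YPD values lay at background. MET13 fell by 1.76 ± 0.42 (adjusted p = 0.0212). The remaining genes of homocysteine and methionine synthesis did not pass: MET12 differed by -0.09, MET7 by 0.21 and MET2, the homoserine acetyltransferase gene, by -0.18.

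Among the 8 genes of sulfate activation and reduction, 3 passed, all of them genes of sulfite reductase or its cofactor. MET10 encodes the alpha subunit of sulfite reductase. Its lowest, median and highest levels were 0.33, 1.19 and 1.96 in F1 and -2.38, -1.94 and -0.16 in YPD, with no overlap and 2 YPD arrays at or below the background. MET10 fell by 2.64 ± 0.48, or 6.21-fold (adjusted p = 0.0048). MET5 encodes the beta subunit of the same enzyme. In F1 it was at 2.32, 2.62 and 2.88 at 30 min for mock, low and high dose, but at -0.90, -0.73 and 0.41 at 1 h. In YPD it was at -1.52, -0.61 and -0.17 at 30 min and at -1.92, -1.08 and -0.06 at 1 h. All YPD arrays were thus below the F1 arrays at 30 min, while at 1 h the media overlapped. MET5 fell by 1.99 ± 0.46 over both times (adjusted p = 0.0187), with -3.37 ± 0.39 in the fit of the 30 min arrays and -0.62 ± 0.44 in that of the 1 h arrays (adjusted p = 0.427). The difference between the times was not tested.

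MET1 makes the sirohaem precursor for sulfite reductase. Its lowest, median and highest levels were -1.15, 0.59 and 1.00 in F1 and -2.20, -1.52 and -0.21 in YPD. Within each time the 3 YPD arrays were below the 3 F1 arrays, but the YPD low- and high-dose values at 1 h were at background. MET1 fell by 1.57 ± 0.34 (adjusted p = 0.0121). The remaining genes of this branch did not pass. MET14, the APS kinase gene, differed by -1.03 ± 0.36 (adjusted p = 0.108), and MET16, the PAPS reductase gene, by -1.04 ± 0.37 (adjusted p = 0.12), lower in 6 of 6 pairs. MET3 encodes ATP sulfurylase, the entry of the pathway, and its value had the opposite sign: it differed by 1.18 ± 0.42 (adjusted p = 0.113). MET3 was at -1.02, -0.37 and -1.49 in F1 at 30 min and -2.15, -1.17 and -0.07 at 1 h, against -0.14, -0.56 and -0.16 and then -0.18, 0.59 and 1.25 in YPD. Without background correction the sign of MET3 turned, to -0.32. MET22, which removes a by-product of PAPS reduction, differed by -0.34, and MET8 by 0.20.

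CYS3, cystathionine gamma-lyase, makes cysteine in the last step of transsulfuration. In F1 its levels were 2.10, 2.34 and 2.90 at 30 min and 1.46, 2.67 and 3.88 at 1 h for mock, low and high dose. In YPD they were 0.30, -1.45 and -0.86 at 30 min and -0.15, 1.90 and 2.82 at 1 h. The media were apart at 30 min and overlapped at 1 h. CYS3 fell by 2.13 ± 0.53 in YPD (adjusted p = 0.0267), with -3.12 ± 0.47 at 30 min and -1.14 ± 0.24 at 1 h, each in its own fit. The other transsulfuration genes did not pass: CYS4 (cystathionine beta-synthase) differed by -0.56, STR2 (cystathionine gamma-synthase) by -0.35 and STR3 (cystathionine beta-lyase) by 0.30.

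SAH1 encodes S-adenosylhomocysteine hydrolase, which returns homocysteine from the SAM cycle. Its lowest, median and highest levels were 2.72, 3.01 and 3.42 in F1 and 1.19, 1.92 and 2.27 in YPD, with no overlap. SAH1 fell by 1.20 ± 0.29, or 2.30-fold (adjusted p = 0.0221). In BY4742 it stood at 2.69 in mock and 1.22 at the high dose. The SAM synthetase genes SAM1 and SAM2 did not pass, at -0.57 and -0.58. SAM2 was lower in YPD in 6 of 6 pairs and SAM1 in 5 of 6.

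The 6 transporter genes showed differences from -1.21 to 0.94. SAM3, the SAM permease gene, had the smallest adjusted p, 0.059, at -1.21 ± 0.36. It ran from 0.21 to 2.24 in F1 and from -1.66 to 1.67 in YPD. The sulfate permease genes differed by 0.78 for SUL1 and -0.36 for SUL2, the high- and low-affinity methionine permease genes by 0.17 for MUP1 and 0.94 for MUP3, and MMP1 by -0.28. The 6 regulator genes ran from -1.19 for MET30, which lay at background in 5 of the 6 YPD arrays, to 0.68 for CBF1. MET4 itself differed by -0.07, MET28 by 0.11, MET31 by -0.28 and MET32 by 0.20.

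**Figure D2:**
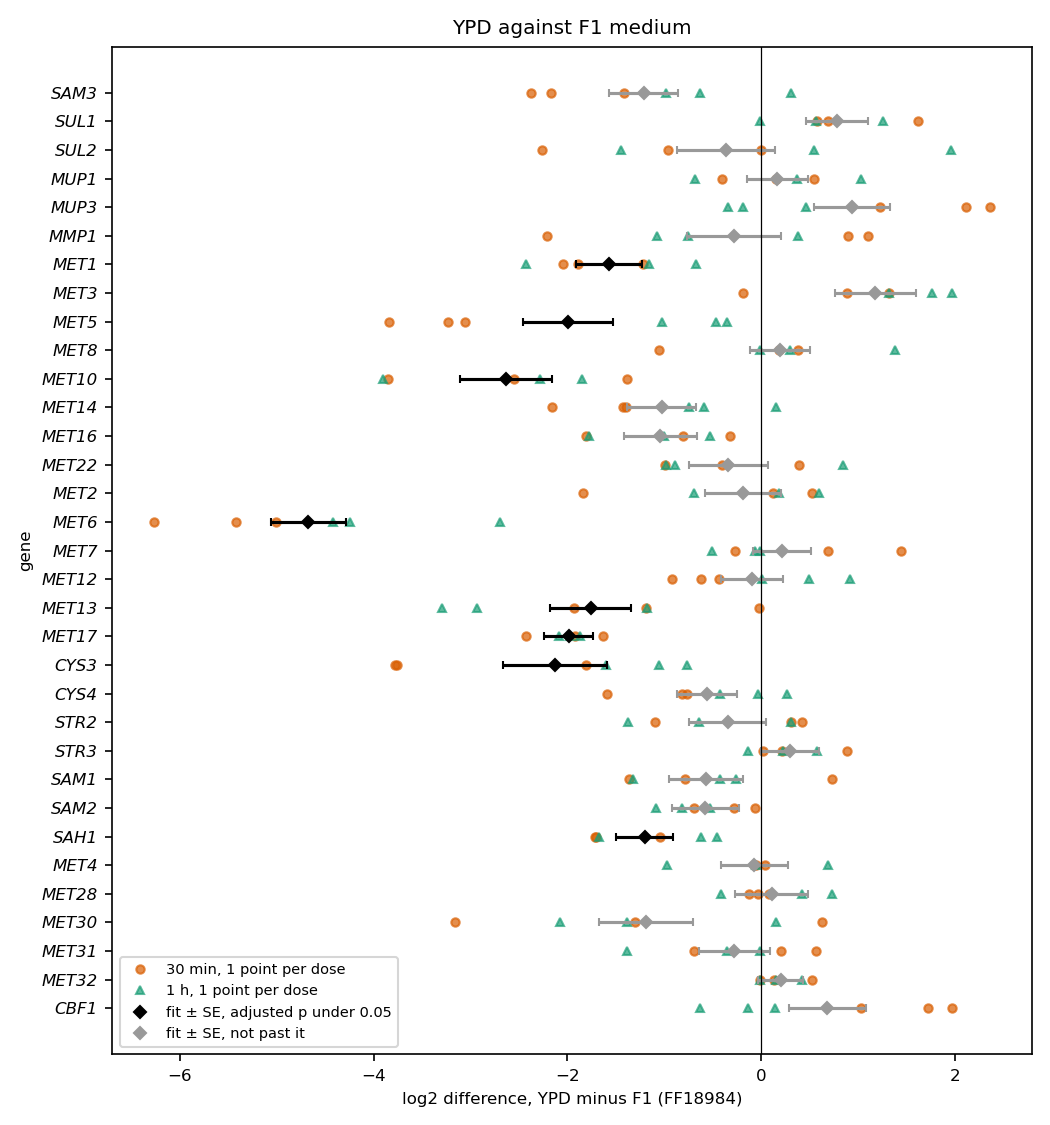
Log2 difference of YPD minus F1 in FF18984 for each gene. Circles (30 min) and triangles (1 h) are pairs of arrays at the same dose, and diamonds with bars are the fit ± SE, black where the adjusted p is under 0.05. The 8 black diamonds all lie left of 0, from -4.67 for MET6 to -1.20 for SAH1.

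The medium comparison rests on 4 membrane sets, of which each holds 1 medium, so differences between membranes are mixed with those between media. The fit put the correlation of arrays within a set at 0.0744. Its SE thus treats the 12 arrays as nearly separate and hardly covers differences between membranes. With the mean of each set as 1 value, 6 of the 8 genes passed, where 2.23% of all genes did. With medium and time fitted, these 4 means leave little to measure the error by. MET1 (adjusted p = 0.0685) and SAH1 (adjusted p = 0.254) did not. Without the compressed YPD 30 min high-dose array 6 genes passed, where 4.33% of all genes did. MET5 then had an adjusted p of 0.0506 and CYS3 of 0.0602. The 2 high-dose arrays at 1 h had the highest share of genes at background. Without them 7 passed, where 5.40% of all genes did, and MET13 had an adjusted p of 0.0663.

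**Figure D3:**
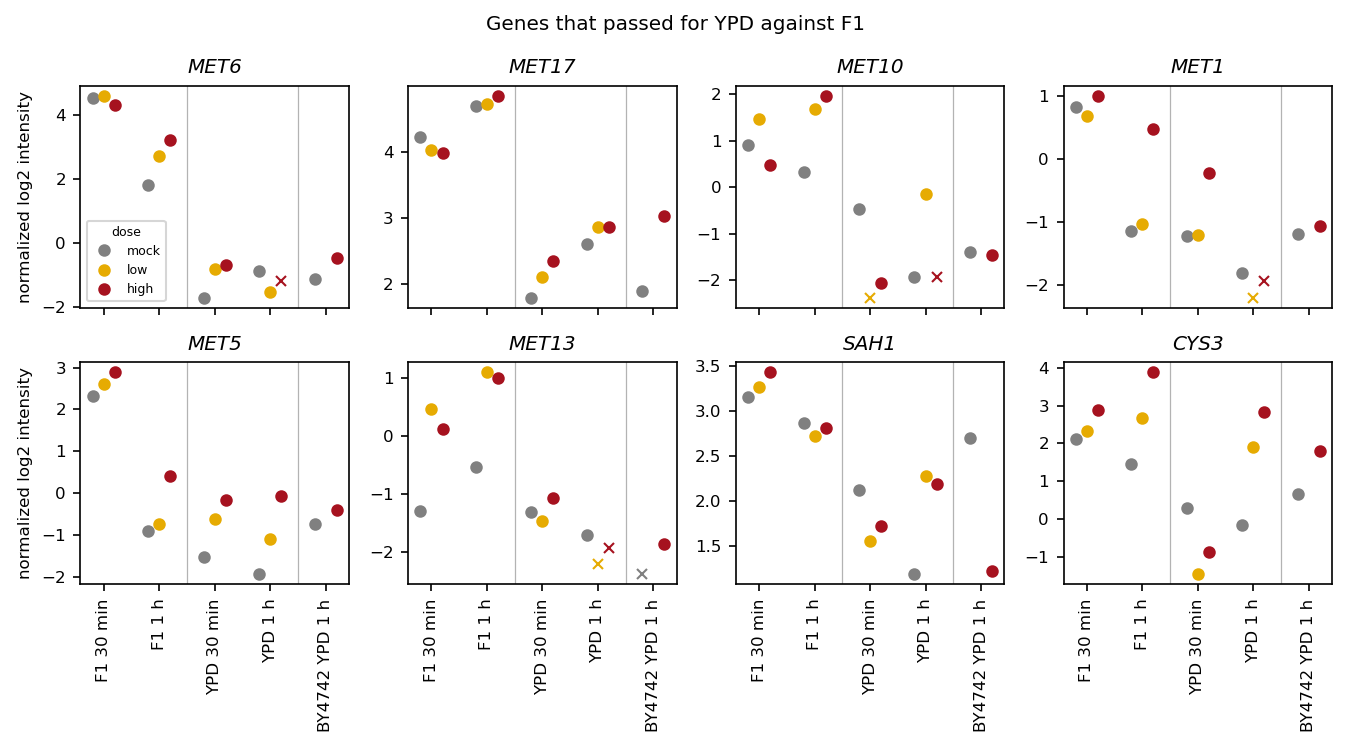
Normalized log2 intensity of the 8 genes that fell in YPD, by membrane set; colours give the dose, circles single arrays and crosses values at or below the background. MET6, MET17, MET10 and SAH1 have all 6 YPD arrays of FF18984 below all 6 F1 arrays, while MET5 and CYS3 overlap at 1 h.

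With no overlap asked of all 6 arrays per medium, MET6, MET10, MET17 and SAH1 were lower in YPD, 4 of the 33 genes, where 0.820% of all genes were. No member was higher by this measure, against 1.64% of all genes. Asked within each time, MET1 joined them, 5 of 33 against 2.67% of all genes, while 0 of 33 were higher, against 4.38%. MET12 was lower in YPD at all 3 doses at 30 min and higher at all 3 at 1 h, and 6.84% of all genes changed sign in this way in either direction. Both BY4742 arrays lay below all 6 F1 arrays for 11 of the 33 genes, where 10.9% of all genes did. MET2 lay at background on both BY4742 arrays and MET13 on the mock array. The 11 genes were MET2, MET6, MET10, MET13, MET17, MET22, STR2, SAM2, SAM3, SAH1 and SUL2. MET12 was the only one of the 33 above all F1 arrays, at -0.72 and -0.63, against 12.7% of all genes. Strain, medium and membrane differ between these arrays and cannot be told apart.

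The times were fitted separately as a check within time. Within a time each medium is a single membrane set, so medium and membrane cannot be told apart. These fits take the arrays of a membrane at different doses as repeats. Their SE and calls do not cover differences between membranes, also where such fits are given above. On the 30 min arrays 11 of the 33 genes passed, where 11.0% of all genes did. The 9 lower genes were MET6 (-5.56), MET5, CYS3, MET17, MET10, MET14 (-1.66), SAM3 (-1.99), SAH1 and MET1. CBF1 and MUP3 were higher in YPD, by 1.57 and 1.90. On the 1 h arrays 6 of the 33 passed, where 8.30% of all genes did: MET6 (-3.79), MET10 (-2.68), MET13 (-2.47), MET17 and CYS3 were lower and MET3 (1.68) was higher. Of these 1 h arrays, MET3 was at background in the F1 mock and low-dose arrays and MET13 in the YPD low- and high-dose arrays. MET6 and MET10 were at background in the YPD high-dose array.

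The high dose was compared with mock over the 4 FF18984 membrane sets, to see which genes respond to 0.0125% MMS. None of the 33 genes passed an adjusted p of 0.05 in limma, where 0.0820% of all genes did. At an unadjusted p under 0.05 there were 6 of the 33 and 810 of all 6094 genes. These 6 were MET5, CYS4, MMP1, STR3, CYS3 and MET22, and all 6 had higher values at the high dose. The median of the 33 differences was 0.20 against -0.00 over all genes, and 21 of the 33 were above 0, where 49.7% of all genes were.

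MET5 was higher by 0.57 in F1 at 30 min, 1.31 in F1 at 1 h, 1.35 in YPD at 30 min and 1.86 in YPD at 1 h, a difference of 1.27 ± 0.32 (SE, 4 sets; adjusted p = 0.149). CYS4, the first step of transsulfuration, was at 1.30, 0.45, -0.29 and 0.03 in the mock arrays of F1 30 min, F1 1 h, YPD 30 min and YPD 1 h. At the high dose it was at 1.73, 1.68, 0.96 and 1.65 in the same order. CYS4 was thus higher in each set, by 0.43 to 1.62, with a difference of 1.13 ± 0.30 (adjusted p = 0.149). MET5 and CYS4 were the members at least 2-fold higher in 3 of the 4 sets, where 1.77% of all genes were, and none of the 33 was at least 2-fold lower in 3 sets, against 1.49%. In 4 of 4 sets 5 of the 33 had a higher value and 0 a lower one, where 8.25% and 9.06% of all genes did. MET7 is among these 5, although both of its arrays were at background in the F1 1 h and YPD 1 h pairs. MET14 is another, with a difference of 0.03 in YPD at 30 min and its high-dose value at background in YPD at 1 h. Neither MET5 nor CYS4 was at background on any array. MET5 differed by 0.16 without background correction, and CYS4 by 0.48.

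STR3 was higher by 0.16 to 1.35 in 4 of 4 sets, a difference of 0.83 ± 0.31 (adjusted p = 0.273). MMP1 differed by 1.50 ± 0.54 (adjusted p = 0.259), with 4.04 in the F1 30 min set, where its mock value was at background, and -0.11 to 1.35 in the others. MET22 differed by 1.05 ± 0.45 (adjusted p = 0.335), with -0.52 in the F1 30 min set and 0.86, 1.89 and 1.99 in the YPD 30 min, F1 1 h and YPD 1 h sets. Its YPD 1 h mock value was at background. Without background correction STR3 and MET22 had the opposite sign.

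At the high dose CYS3 was higher than mock by 2.42 in F1 and 2.97 in YPD at 1 h, and at 30 min it was higher by 0.79 in F1 and lower in YPD, at -1.16. Over the 4 sets the difference was 1.26 ± 0.53 (adjusted p = 0.331). In the fit of the 1 h sets alone CYS3 rose by 2.69 ± 0.29 (adjusted p = 0.00971), the 1 member that passed where 0.197% of all genes did. In the 30 min sets alone it was at -0.18 ± 0.57, and 0 members passed where 0.525% of all genes did. CYS3 stayed above the background on all 14 arrays. The test of the time difference itself gave 2.88 ± 0.69 for CYS3, with an adjusted p of 0.0957.

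The rise of CYS3 at 1 h followed the dose, with 1.46, 2.67 and 3.88 in F1 and -0.15, 1.90 and 2.82 in YPD for mock, low and high dose. The order mock, low, high was found in both 1 h sets for 8 of the 33 genes, where 8.57% of all genes showed it: MET3, MET5, MET17, MET22, CBF1, CYS3, CYS4 and STR3. Of these, MET5, MET17, CYS3, CYS4 and STR3 also had a higher value at the high dose in BY4742, 5 of 33 against 4.27% of all genes. The steps of MET17 were small, from 4.69 to 4.85 in F1 and from 2.60 to 2.87 in YPD. MET3 was at background in the F1 1 h mock and low-dose arrays. The share of all genes at or below the background rose in the same order, from 2.58% over 16.1% to 31.4% in F1 and from 11.2% over 23.1% to 33.4% in YPD. Its part in the dose order was not tested.

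**Figure D4:**
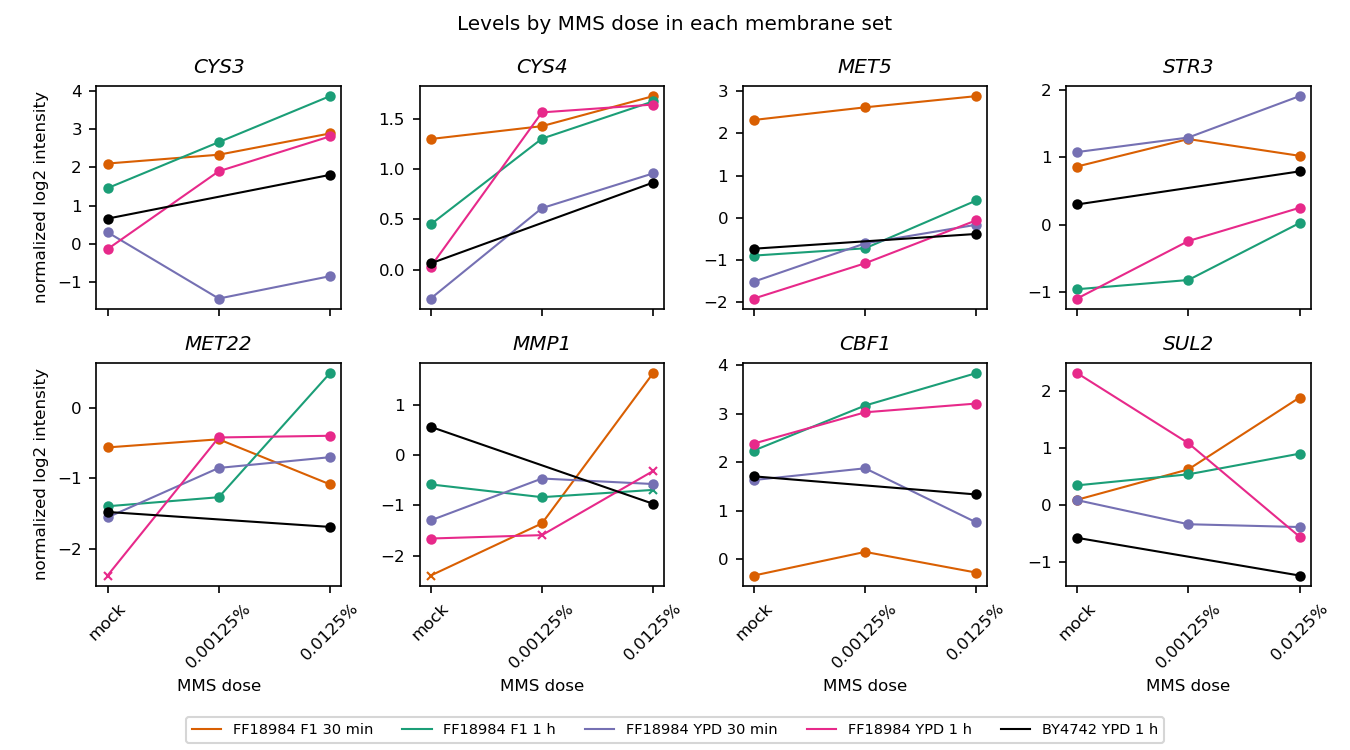
Normalized log2 intensity by MMS dose (mock, 0.00125% and 0.0125%) for 8 genes, with 1 line per membrane set and crosses for values at or below the background. CYS3 lies higher with each dose in both 1 h sets and below mock in YPD at 30 min, CYS4 and MET5 are higher than mock at the high dose in all sets, and SUL2 at the high dose lies below mock in YPD at 1 h and above mock in F1 at 30 min.

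At the low dose 0 of the 33 genes passed against mock, and 0% of all 6094 genes did (limma, with 392 genes at an unadjusted p under 0.05). The members under that p were CYS4, MET30 and MET7. CYS4 was higher in 4 of 4 sets, by 0.13 to 1.54, a difference of 0.86 ± 0.30 (adjusted p = 0.697). MET30 had a difference of -1.53 ± 0.55 (adjusted p = 0.709), but its low-dose value was at background in all 4 sets. MET7 differed by 0.71 ± 0.32 and was at background in 9 of 14 arrays. The next smallest p belonged to MET5 (0.55), CBF1 (0.57) and MET13 (0.68). At the low dose 6 of the 33 had a higher value in 4 of 4 sets and 1 a lower one, where 8.30% and 8.17% of all genes were. MET7 is among these 6, with both arrays at background in the F1 1 h and YPD 1 h pairs. MET22 is another, with its mock value at background in YPD at 1 h. The lower gene is MET30, with both arrays at background in the YPD 30 min and YPD 1 h pairs.

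Between the high and the low dose 0 of the 33 passed, where 0.0328% of all genes did. MET30 had the smallest p, with 1.70 ± 0.55, and its low-dose values were at background, as above. MET14 differed by 0.80, MET5 by 0.72, MET1 by 0.78, MMP1 by 1.08 and MET16 by 0.73, all with adjusted p of 0.888. Of these, MET14, MET1 and MMP1 were at background at both doses in the YPD 1 h set. In F1 at 1 h, MET14 was at background at the low dose and MMP1 at the high dose.

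The test of whether the high-dose response differed between 1 h and 30 min passed for 0 of the 33 genes, where 0.230% of all genes passed. The 6 smallest p belonged to CYS3, SAM2, CBF1, MET3, MET28 and MET22. SAM2 was lower at the high dose at 30 min, by -1.23 in F1 and -1.44 in YPD, and differed by 0.50 and -0.05 at 1 h, so that the time difference was 1.56 ± 0.52 (adjusted p = 0.155). CBF1, at 0.06 and -0.87 at 30 min and 1.60 and 0.82 at 1 h, had a time difference of 1.62 ± 0.56 (adjusted p = 0.171). MET28 went the other way, at 0.82 and 0.93 at 30 min and -0.40 and -1.54 at 1 h, with a time difference of -1.85 ± 0.68 (adjusted p = 0.195). MET3 had a time difference of 1.99 ± 0.72 and MET22 of 1.77 ± 0.79. Centring arrays on the median took the median difference over all genes from 0.02 to 0.41. With it CYS3, CBF1 and SAM2 passed, at 3.68, 2.72 and 2.28 relative to that median, where 7.34% of all genes passed. Without the compressed YPD 30 min high-dose array, MMP1 had a time difference of -3.37 ± 0.82, although its F1 30 min mock value was at background. That fit keeps a single high-dose array at 30 min, so no call is read from it.

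No gene passed the test of whether the high-dose response differed between the media, 0% of all genes and 0 of the 33 (limma, 253 genes at an unadjusted p under 0.05). SUL2, a sulfate permease gene listed as SEL2 in the files, was the 1 member under that p. From mock to the high dose SUL2 went from 0.09 to 1.88 in F1 at 30 min and from 0.35 to 0.90 in F1 at 1 h. In YPD it went from 0.09 to -0.38 at 30 min and from 2.31 to -0.55 at 1 h. The difference between the media was -2.84 ± 0.82, with an adjusted p of 0.953. MET13 was next, at -1.46 ± 0.70, then SUL1 at -1.10, MET10 at -1.39, CBF1 at -0.85 and SAM3 at -0.65.

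In BY4742 the high dose was set against mock on 1 array each, so there is no test. Of the 33 genes, 2 were at least 2-fold higher, where 5.15% of all genes were, and 3 at least 2-fold lower, where 3.87% were. CYS3 went from 0.66 to 1.81 and MET17 from 1.89 to 3.02. SAH1 went from 2.69 to 1.22, MMP1 from 0.57 to -0.97 and MET30 from -0.40 to -1.58. CYS4 was 0.81 higher, MET6 0.67 higher and MET5 0.35 higher. Without background correction none of the 33 passed 2-fold.

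**Figure D5:**
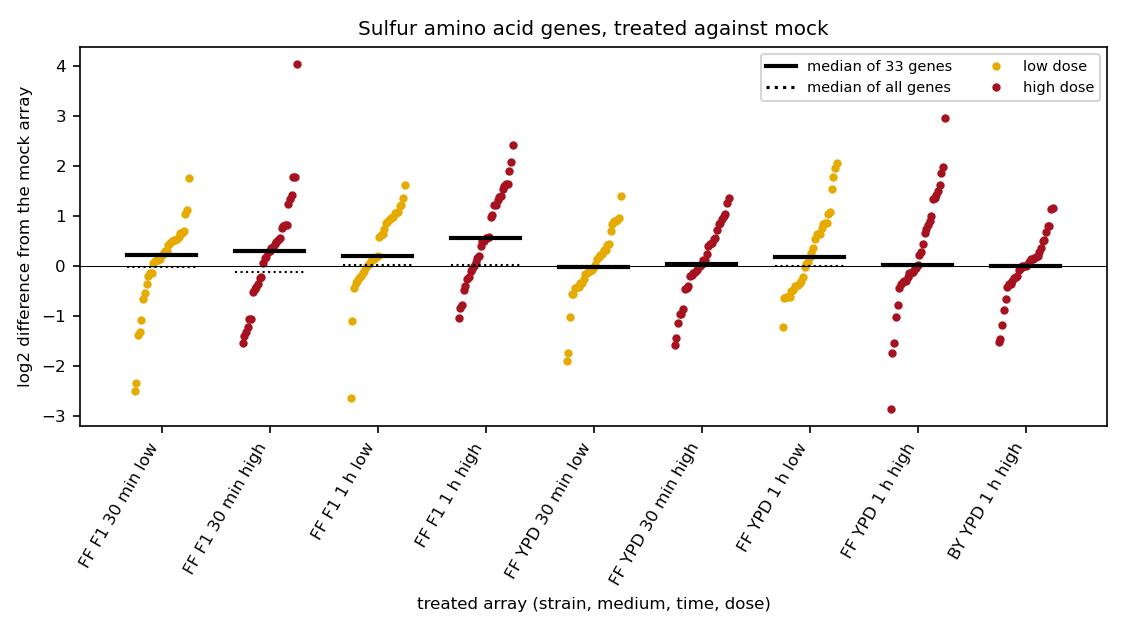
Log2 difference of each treated array from the mock array of its own membrane set, with 1 point per gene for the 33 genes; solid lines are their median and dotted lines the median of all genes. The median of the 33 was highest in F1 at 1 h at the high dose, at 0.55 against 0.01 for all genes, and near 0 in BY4742.

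The counts in single pairs of arrays differed between sets. In F1 at 1 h and the high dose 13 of the 33 genes were at least 2-fold higher than mock and 1 was lower, where 10.6% and 9.60% of all genes were, and 8 of the 33 had 1 of the 2 values at background. In YPD at 1 h and the high dose the counts were 8 higher and 4 lower, where 16.8% and 17.6% of all genes were, with 13 genes at background on 1 array. At 30 min and the high dose they were 6 and 6 in F1, against 18.0% and 18.5%, and 4 and 3 in YPD, against 9.80% and 10.3%.

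The 30 min and 1 h arrays of FF18984 are on different membranes, so time and membrane cannot be told apart and no test was made. In both media all 3 arrays of 1 h were below all 3 of 30 min for 4 of the 33 genes, where 16.3% of all genes were, and above them for 6, where 18.8% were. MET14 ran from 2.58 to 3.34 in F1 and from 1.15 to 1.28 in YPD at 30 min, and from -2.35 to -0.66 and from -2.20 to -1.25 at 1 h. MET1, STR3 and MUP1 were the others that were lower at 1 h. At 1 h, MET14 and MET1 were at background in the YPD low- and high-dose arrays, and MET14 also in the F1 low-dose array. CBF1, MET17, MET28, SAM1, SAM3 and MUP3 were higher at 1 h. CBF1 ran from -0.33 to 0.15 in F1 at 30 min and from 2.24 to 3.84 at 1 h. On the BY4742 arrays, labelled 1 h, MET14 was at 2.08 and 1.72, above every FF18984 YPD array of either time.

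A list of 30 other sulfur genes, which includes glutathione synthesis, methionine salvage and thioredoxin genes, had 0 genes past the threshold in any of the 6 tested comparisons. For YPD against F1, 16 of the 30 were higher, where 48.8% of all genes were, and 14 were lower, with a median of 0.10. SHM2, a serine hydroxymethyltransferase that feeds the folate pool, had the smallest p there, at -0.98 ± 0.30 (adjusted p = 0.0676). MHT1, an S-methylmethionine-homocysteine methyltransferase, and GSH1, the first enzyme of glutathione synthesis, had time differences in the high-dose response of -2.82 and -2.73 (adjusted p = 0.094 and 0.124).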

How the data were processed

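The authors deposited, per the file headers, the intensity of each spot as an integral, a background and their difference, and a series table of intensity values whose making is not given in the sources used here. Each of 6912 positions carried 2 spots, and 6102 positions held 6094 open reading frames. Background-subtracted values were divided by the array's median positive value, set to 0 where negative, raised by a pseudocount of 0.187 (the 10th percentile of positive values), taken to log2, averaged per gene and quantile normalized over 14 arrays. No gene was left out. A gene was at background where the mean of its spots was 0 or less. Dose effects were fitted in limma 3.58.1 (R 4.3.3; lmFit, then eBayes with trend) over 12 FF18984 arrays, with a fixed term for the membrane set. For YPD against F1 the fit held time and dose, and the set entered as a random term by duplicateCorrelation (statmod 1.5.0; correlation 0.0744). Benjamini-Hochberg adjustment ran over all 6094 genes. Since the labels do not call the sets separate cultures, p-values cover the spread between these arrays alone, which may be technical, and the number of arrays limits the precision. The scripts were tested on simulated data, where most 2-fold dose effects were missed and YPD against F1 gave more false calls than the threshold allows.

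Alternatives were cyclic loess, median centring, the series table, 4 times the pseudocount, no background correction, genes above background in all 12 arrays, FF18984 normalized alone, each membrane set left out, each time alone, other uses of the set and mock arrays alone. Single spots, and leaving out the compressed array or the 2 high-dose arrays at 1 h, were chosen after seeing the data. The genes, lists and tests were chosen with earlier results of these data known. All 33 genes are accounted for. Per test, those past the threshold and the 6 with the smallest p were described. Of the 33, 11 had no symbol in the files and were found by systematic name. Files name no genome build, so no positions are given, and a planned search of promoter motifs was not run, since no promoter sequences were used here. Tables and figures were made with pandas 2.3.3, numpy 2.4.6 and matplotlib 3.10.9 in Python 3.11.15.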

Additional observations from a re-analysis of the deposited data

Results flagged for a closer look

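MET12 had a lower value in YPD than in F1 at all 3 doses at 30 min, with a mean difference of -0.66, and a higher one at all 3 doses at 1 h, with a mean of 0.47. Such a change of sign was seen in 6.84% of all genes, and the difference was not tested. MET12 was at or below the background in 5 arrays, among them all 3 YPD arrays at 30 min.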

How the results depend on the processing

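For YPD against F1, 8 of the 33 genes passed, where 5.25% of all genes did. The count was 4 without background correction (3.38% of all genes), 5 with spot A alone (4.81%) and 1 with the 4 mock arrays alone (0.164%). Among genes above background in all 12 arrays, where 14 of the 33 remain for testing, it was 5, and 11.6% of the genes tested passed. The count was within 1.5 times of 8 under the other 12 alternatives, where 2.23% to 11.0% of all genes passed. MET6 passed in all 15 alternatives that tested it and MET17 in 15 of 16. Differences were over 1.5 times smaller without background correction for MET6 (-2.92), MET10 (-1.01), MET1 (-0.65), MET13 (-0.72), MET5 (-1.14) and CYS3 (-1.03), and with 4 times the pseudocount for MET10 (-1.55), MET1 (-0.83) and MET13 (-0.94). MET13 was at -0.60 on the 4 mock arrays. Leaving out 1 membrane set could not be fitted for YPD against F1. For high dose against mock 1 of the 33 passed in the 1 h sets alone and 0 in the other 16 alternatives, including each left-out set. Low dose against mock, high against low dose, and the difference between media gave 0 in every alternative. For the difference between times 3 passed with median centring, where 7.34% of all genes did, and 0 in the other alternatives that keep every array. Alternatives that leave out arrays keep a single high-dose array at 30 min or at 1 h, so no count is given for them. In BY4742, 5 genes were past 2-fold, 3 with median centring, 0 without background correction, 2 with 4 times the pseudocount and 3 with the series table. Without background correction the sign turned for STR3 (-0.0865) and MET22 (-0.0317) at the high dose, MET5 (-0.0651) between the doses, MET22 (-0.71) between times, and MET13 (0.122) and SUL1 (0.0631) between media. CYS3 at the high dose was -0.18 in the 30 min sets. The cause of these changes was not tested. Counts over all genes ran from 10 to 672 for YPD against F1, 0 to 32 for high dose against mock and 0 to 447 for the difference between times. The labels give no replicate numbers, and the dose fits match arrays by membrane set. Signal near background limits MET7, MET8, MET30 and MET32 most.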
